A study of Mus musculus with 9 samples.

Results

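The genes of the TGF-beta and BMP pathway were examined in peak lists of H3K27ac and H3K4me1. The cells were primary muscle cells of the oviduct, taken from pregnant WT mice on D2. The 46 members, of 21938 protein-coding genes in the annotation, were taken by symbol and sorted into 14 ligands, 12 receptors and coreceptors, 8 Smads, 4 target genes, 6 antagonists and 2 latent TGF-beta binding proteins. Per the labels, oviducts of mice 8 to 12 weeks old were digested and filtered, the cells were kept in dishes for some hours, and each library was made from 50000 fixed cells by ChIC-Seq, a method that brings protein A-MNase to the mark by its antibody and sequences the fragments it cuts loose. There were 3 samples of H3K27ac, 3 of H3K4me1 and 3 of the IgG control, and every sample was WT, so the comparisons are between marks and between genes. The labels do not say whether the 3 samples of a mark came from separate animals, so the spread between them may be technical.

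TGF-beta and BMP ligands are secreted dimers that join type I and type II receptors, both of them serine/threonine kinases. The type I receptor phosphorylates the receptor Smads (Smad2 and Smad3 for TGF-beta and activin, Smad1, Smad5 and Smad9 for BMP), which enter the nucleus with Smad4. Smad6, Smad7, the Id genes, and secreted antagonists such as noggin and follistatin limit or carry out the response, and in smooth muscle the pathway is known for its part in contractile differentiation and matrix production. H3K27ac is found at active promoters and enhancers, and H3K4me1 at enhancers and at the sides of promoters.

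The sequences below are shown because Smads are known to bind some of these letters and because Smad6, Grem1, Id2 and Id4 have matches near their starts. Id1 had neither GTCTAGAC nor GGCGCC within 1 kb of its 5′ end. Both strands were searched for GTCTAGAC, the SMAD palindrome, for GGCGCC, the core of the GC-rich BMP element, for GGCGCC followed after 5 bases by GTCT, and for TGANTCA, a run that takes in the AP-1 sites TGACTCA and TGAGTCA as well as runs with A or T at the center. The palindrome contains GTCT, and the spaced element contains GGCGCC. Capitals mark the matches. The palindrome lay across the 5′ end of Smad6, an inhibitory Smad, in its exon, and peaks of all 3 H3K27ac replicates and of 0 H3K4me1 replicates overlapped these 30 bases. The spaced element lay outside the exons of Grem1, the BMP antagonist gremlin, 910 bases downstream of its 5′ end, where 1 of 3 H3K27ac and 2 of 3 H3K4me1 lists had a peak. GGCGCC stood within the 250 bases upstream of the RefSeq start (GRCm38) of both Id2 and Id4, which encode dimerization partners that block bHLH factors.
Smad6 palindrome, chr9:64022045-64022074, minus strand: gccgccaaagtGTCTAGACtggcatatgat
Grem1 spaced element, chr2:113757722-113757750, minus strand: atacagcAGACCTGCAGGCGCCgggcagc
Id2 upstream, chr12:25096093-25096342, minus strand: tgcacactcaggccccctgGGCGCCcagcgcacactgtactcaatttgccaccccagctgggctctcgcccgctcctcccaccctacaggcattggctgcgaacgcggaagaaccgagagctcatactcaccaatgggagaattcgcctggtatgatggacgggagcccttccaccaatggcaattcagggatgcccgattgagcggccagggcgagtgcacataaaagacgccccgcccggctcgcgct
Id4 upstream, chr13:48260866-48261115, plus strand: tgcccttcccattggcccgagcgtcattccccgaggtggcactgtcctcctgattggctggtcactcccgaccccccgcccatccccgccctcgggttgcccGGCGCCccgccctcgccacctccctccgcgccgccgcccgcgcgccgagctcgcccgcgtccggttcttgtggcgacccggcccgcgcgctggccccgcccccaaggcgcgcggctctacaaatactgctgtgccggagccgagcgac

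H3K27ac peaks of all 3 replicates overlapped the Id2 sequence, and no peak of the 6 replicate lists overlapped that of Id4. Thus the same letters stood in a covered and in an uncovered sequence. RefSeq promoter sequences, 300 bases around a start, were matched for 31 of the 46 members. Those without one were Tgfb3, Bmp2, Bmp3, Bmp7, Gdf5, Gdf6, Tgfbr3, Acvrl1, Smad2, Smad4, Smad7, Id1, Nog, Fst and Bambi. Among the 31 members with a sequence, GGCGCC was in 11 (35.5%), against 13.4% of 27025 gene symbols with such a sequence, and the palindrome was in 1 (3.23%), against 0.248%. TGANTCA was in 0 of the 31, against 8.97%, and thus the AP-1 sites were also in 0, against 5.95%. Within 1 kb of the 5′ end on either side, GGCGCC was in 36 of 46 members (78.3%) and 39.3% of all protein-coding genes, the palindrome in 2 members (Smad6 and Smad7) and 1.68%, the spaced element in Grem1 alone among members and 0.301%, TGANTCA in 12 members (26.1%) and 37.3%, and the AP-1 sites in 8 members (17.4%) and 24.3%. A match is a run of letters and was not tested as a binding site.

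The longest distal stretches covered in all 6 replicate lists lay in introns of Fstl1, which encodes a secreted follistatin-like protein, Smad1, Tgfbr1, the TGF-beta type I receptor, and Bmpr2, the BMP type II receptor. A distal stretch lay outside the 1 kb windows of every annotated start. The stretches were 2864 bp (Fstl1), 2815 bp (Smad1), 2117 bp (Tgfbr1), 1972 bp (Bmpr2) and 1724 bp (a further stretch of Smad1) long. TGANTCA matched 1, 2, 3, 0 and 0 times in these, the AP-1 sites among them 0, 1, 2, 0 and 0 times, and neither GTCTAGAC nor GGCGCC matched in any of the 5. The 300 bases around the most central TGANTCA match are given for the 3 stretches that had one, with capitals for the match and all on the plus strand of GRCm38. These 3 matches have A or T at the center and are not AP-1 sites.
Fstl1 intron, chr16:37786957-37787256: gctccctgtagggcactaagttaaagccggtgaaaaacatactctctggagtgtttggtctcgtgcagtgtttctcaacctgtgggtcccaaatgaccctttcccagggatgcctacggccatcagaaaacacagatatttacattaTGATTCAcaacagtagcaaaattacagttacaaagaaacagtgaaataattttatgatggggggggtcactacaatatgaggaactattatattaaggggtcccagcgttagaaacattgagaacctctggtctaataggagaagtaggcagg
Smad1 intron, chr8:79380563-79380862: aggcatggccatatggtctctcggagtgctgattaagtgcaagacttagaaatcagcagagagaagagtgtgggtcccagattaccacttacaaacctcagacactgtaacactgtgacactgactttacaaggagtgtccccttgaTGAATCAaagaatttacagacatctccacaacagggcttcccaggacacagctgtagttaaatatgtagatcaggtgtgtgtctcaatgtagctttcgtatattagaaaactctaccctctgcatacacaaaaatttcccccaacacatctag
Tgfbr1 intron, chr4:47355110-47355409: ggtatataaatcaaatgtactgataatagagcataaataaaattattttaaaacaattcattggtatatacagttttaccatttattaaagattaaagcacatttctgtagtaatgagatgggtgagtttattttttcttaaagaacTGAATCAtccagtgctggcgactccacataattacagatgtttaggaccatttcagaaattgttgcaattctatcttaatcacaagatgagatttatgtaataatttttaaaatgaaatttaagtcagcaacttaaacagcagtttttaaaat

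The Fstl1 stretch, chr16:37785097-37787960, was part of peaks of 7856, 4902 and 9370 bp in the H3K27ac replicates and 5153, 7073 and 9090 bp in the H3K4me1 replicates. The fold enrichment of these peaks stood at the 94.0 to 99.3 percentile of its list. At the longer Smad1 stretch, chr8:79380436-79383250, peaks stood at the 91.1 to 98.5 percentile. The Tgfbr1 stretch, chr4:47354611-47356727, lay under peaks at the 83.8 to 92.4 percentile, and the Bmpr2 stretch, chr1:59779728-59781699, under peaks at the 70.6 to 85.4 percentile. The peaks over the Tgfbr1 stretch also reached a promoter window of Tgfbr1 in all 6 lists, and those over the shorter Smad1 stretch reached one of Smad1 in 3 H3K27ac lists and 1 H3K4me1 list, so in those lists the stretches were parts of promoter peaks. At the other 3 stretches no peak reached a promoter window of the gene. These 4 stretches were thus covered by both marks at different ranks within the lists.

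The data collected were 1 peak list for each of the 6 mark samples and 1 pooled list for each mark, called by the authors against IgG. The H3K27ac replicates had 40551842 to 42040809 fragments and the H3K4me1 replicates 41891318, 78891920 and 64063996, set against 3110985 to 3713369 of IgG. The replicate lists held 93684 to 152889 peaks. These covered 145, 102 and 91.0 Mb for H3K27ac and 138, 135 and 130 Mb for H3K4me1. The part of depth in the differences between marks was not tested. The lists were permissive, since 11.1% to 19.0% of their peaks had a −log10 p of at least 1.3. Among cell type markers, promoters had peaks in all 6 lists for 3 of 8 smooth muscle genes (Acta2, Des and Smtn), 6 of 8 stromal genes, 0 of 8 epithelial genes, 1 of 8 endothelial genes and 0 of 8 blood genes. H3K27ac promoter peaks in all 3 replicates were found at 3 smooth muscle, 7 stromal, 0 epithelial, 2 endothelial and 3 blood genes of 8 each (the last being Ptprc, Spi1 and Cd68). Myh11, a defining smooth muscle gene, had no H3K27ac promoter peak in any replicate. The median covered share of the stromal marker loci was 25.1% for H3K27ac and 24.7% for H3K4me1, against 5.90% and 5.78% at the smooth muscle loci, 4.78% and 6.45% at the epithelial, 2.50% and 3.95% at the endothelial and 5.19% and 3.23% at the blood loci. The part of stromal and other cells in the results below was not tested.

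Most of the member receptors and Smads had promoter peaks of both marks, and most BMP ligands did not have H3K27ac. A promoter reached 1 kb to either side of any start of the gene, and a peak overlapping it by at least 1 bp counted. Promoters of 20 members (43.5%) had a peak in all 6 replicate lists, where 27.8% of protein-coding genes did. H3K27ac was found in all 3 replicates at 30 members (65.2%, background 47.1%) and H3K4me1 at 21 (45.7%, background 31.7%). The promoters of Bmp5 and Ltbp2 had no peak in any replicate list, which is 4.35% of members against 31.4% of genes. The number of members with a promoter peak was 36, 33 and 32 in H3K27ac replicates 1, 2 and 3 and 31, 29 and 28 in the H3K4me1 replicates. These groups did not overlap, and neither did those of all protein-coding genes, with 12410, 12121 and 11877 for H3K27ac and 10706, 9846 and 9772 for H3K4me1. The members were counted as a list, so no test was made of this difference. The mean difference, 4.33 members per list, was 10.7 with windows of 250 bp either side of a start and 0.333 with 3000 bp. In the pooled lists, compared after seeing the data, it reversed to -5.00 (36 against 41 members). With only peaks of a −log10 p of at least 1.3, promoters of 2 members (4.35%) had a peak in all 6 lists, near the background of 5.00%. H3K27ac was then found in all 3 replicates at 20 members (43.5%, background 30.8%) and H3K4me1 at 4 of 46 (background 6.30%). No peak was left at 13 of 46 (background 47.2%). Without H3K4me1 replicate 1, 4 members had none (background 32.9%).

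**Figure D1:**
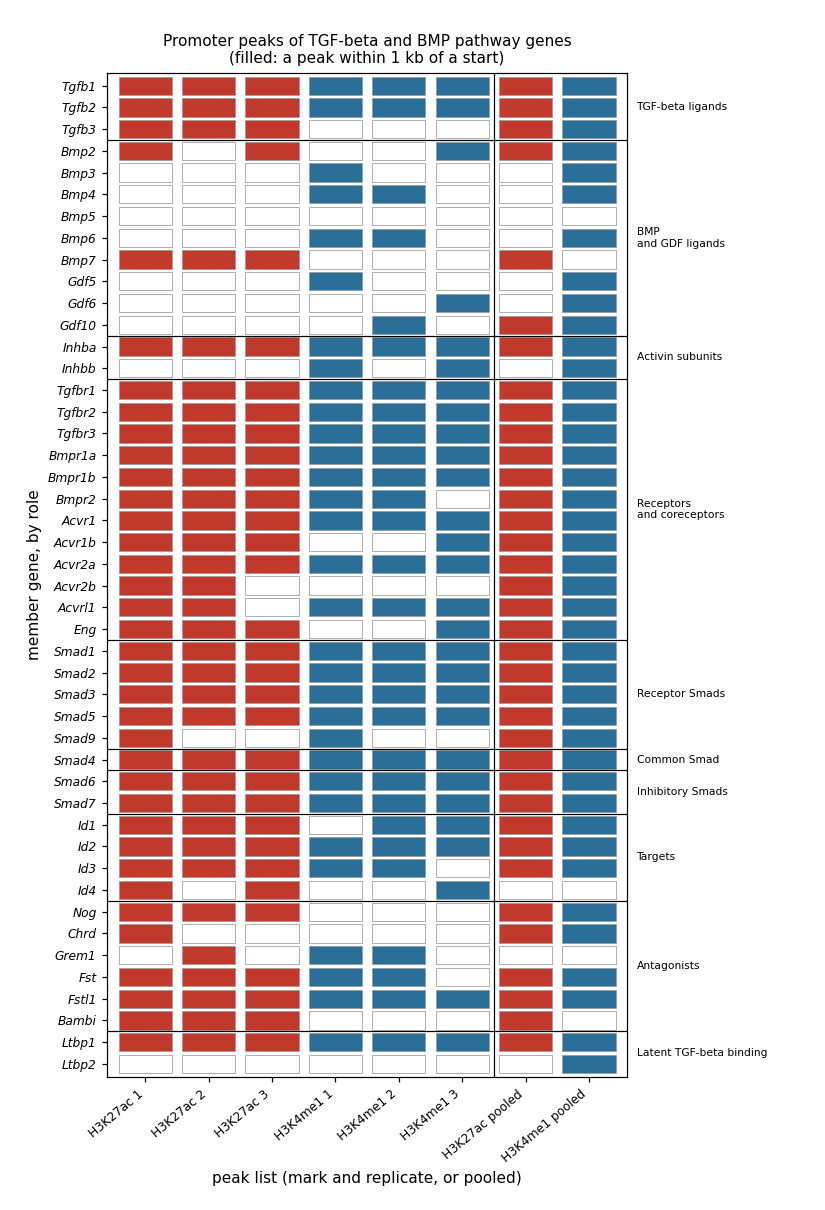
Each row is a member gene, ordered by role, and each column a peak list, and a filled square (red, H3K27ac, blue, H3K4me1) marks a peak within 1 kb of a start. Receptor and Smad rows are mostly filled in both colors, whereas 7 of the 9 BMP and GDF ligands have no red square in the 3 H3K27ac replicate columns.

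Among the ligands, H3K27ac was found at all 3 TGF-beta genes and at few BMP genes, and no test was made between them. Tgfb1, Tgfb2 and Tgfb3 had H3K27ac promoter peaks in all 3 replicates, and the first 2 of them also had H3K4me1 in all 3. Of the 9 BMP and GDF ligands, H3K27ac was found in all 3 replicates at Bmp7 alone and in 2 at Bmp2, and at 7 in none. Tgfb3 and Bmp7 had the same pattern over the replicates, H3K27ac in 3 and H3K4me1 in 0. H3K4me1 peaks were found at 7 of the 9 in 1 or 2 replicates each. The share of all protein-coding genes with a mark in some or none of its replicates was not counted, so these counts describe the members only. Inhba, the activin A subunit, had both marks in all 3 replicates, whereas Inhbb, the activin B subunit, had no H3K27ac peak and H3K4me1 in 2 replicates.

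Of the 12 receptors and coreceptors, 10 had H3K27ac and 8 had H3K4me1 in all 3 replicates, and 7 had both. H3K27ac missed replicate 3 at Acvr2b, an activin type II receptor, and at Acvrl1, the type I receptor known as ALK1. Tgfbr1 and Tgfbr2, the receptor pair of TGF-beta, and Bmpr1a, Bmpr1b, Acvr1 and Acvr2a were filled in all 6 lists, together with the coreceptor Tgfbr3. Any annotated start counted, so some of these peaks lay far inside the gene. The only H3K4me1 promoter peak of Acvr2a began at chr2:48890926 (replicate 1) and chr2:48890097 (replicate 2), with its 5′ end at 48814109. The only one of Bmpr1a in replicate 3 was chr14:34459717-34463066 (5′ end 34503341). The only H3K27ac promoter peaks of Bmpr1b in replicates 1 and 2 ended at chr3:141931030 and chr3:141930914 (5′ end 142169425). Of the 8 Smads, all but Smad9 had both marks in all 3 replicates. Smad9, a BMP receptor Smad, had a peak in replicate 1 of each mark. Among targets, Id1, Id2 and Id3 had H3K27ac in all 3 replicates and Id4 in 2. Among antagonists, Nog (noggin), Fst (follistatin), Fstl1 and Bambi, a decoy receptor, had H3K27ac in all 3 replicates, and Fstl1 alone had H3K4me1 in all 3 as well. Chrd (chordin) had H3K27ac in replicate 1 only and Grem1 in replicate 2 only. Ltbp1, which holds latent TGF-beta in the matrix, had peaks in all 6 lists.

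The pooled lists gave 36 members with H3K27ac (78.3%, background 57.1%) and 41 with H3K4me1 (89.1%, background 58.2%). For 3 of these the pooled H3K27ac peak was seen in fewer than 2 replicates (Gdf10, Smad9 and Chrd). For 13 the same held for H3K4me1 (Tgfb3, Bmp2, Bmp3, Gdf5, Gdf6, Gdf10, Acvr1b, Acvr2b, Eng, Smad9, Nog, Chrd and Ltbp2).

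The strength of promoter peaks was compared as the percentile of the peak's fold enrichment within its list, taking the highest of the peaks at a promoter as deposited. Over members with a peak, the median percentile was 95.5, 93.8 and 92.2 in the H3K27ac lists and 84.7, 84.5 and 78.4 in the H3K4me1 lists. Smad1, Smad7, Tgfbr2, Bmpr1a and Bmpr2 held the highest H3K27ac ranks, at 99.2 ± 0.757, 99.2 ± 0.351, 99.3 ± 0.624, 99.1 ± 0.493 and 99.0 ± 0.814 (mean percentile ± SD, n = 3). Bmpr1b had H3K27ac in all 3 replicates at a percentile of only 50.0 ± 24.5 (SD, n = 3). The widest promoter peak of Smad7 spanned 8687, 14808 and 9787 bp in the H3K27ac replicates and 2161, 11089 and 2692 bp in the H3K4me1 replicates, so the widths overlapped.

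At the single 5′ end of a gene, H3K27ac peaks were more frequent than H3K4me1 peaks in the replicate lists. At the 5′ end of the gene, 19 to 24 members were under an H3K27ac peak and 3 to 6 under an H3K4me1 peak. The mean share was 47.1% ± 5.48 (SD, n = 3) for H3K27ac, against 37.1% of all protein-coding genes, and 9.41% ± 3.30 (SD, n = 3) for H3K4me1, against 13.1%. In the pooled lists 29 members (63.0%, all genes 45.2%) had H3K27ac there and 15 (32.6%, all genes 22.7%) had H3K4me1. Over all annotated starts, at least 1 start was under a peak at 27 of 36, 28 of 33 and 25 of 32 members with an H3K27ac promoter peak, and at 10 of 31, 15 of 29 and 15 of 28 with an H3K4me1 promoter peak. The same was not counted over all protein-coding genes, so these values describe the members only. At 2000 bp downstream, H3K27ac covered 47.8% ± 2.15 of members and 17.8% of genes, and H3K4me1 34.1% ± 2.54 of members and 19.2% of genes. At 2000 bp upstream the shares were 13.1% ± 5.76 against 9.28% and 8.71% ± 2.19 against 7.89%. The members' H3K27ac lay higher than that of all genes mainly on the downstream side, where each replicate covered 21 to 23 members.

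**Figure D2:**
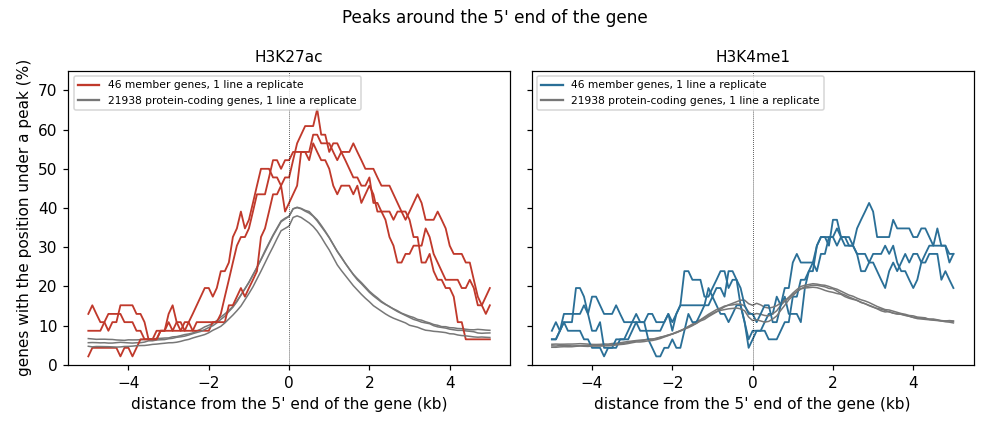
The share of genes (%) whose position lies under a peak is plotted against the distance from the 5′ end (kb, negative upstream) for the 46 members (colored) and for 21938 protein-coding genes (gray), 1 line a replicate list. Colored H3K27ac lines stay high to about 2 kb downstream, where they average 47.8% against 17.8% for all genes, and the H3K4me1 lines of the replicates dip at the 5′ end.

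The share of each locus under peaks, the locus being the gene body and 25 kb either side, separated the roles further. The median over the 46 members was 9.26%, 7.74% and 5.91% in the H3K27ac replicates and 10.6%, 7.63% and 8.33% in the H3K4me1 replicates. Over all protein-coding genes it was 5.29%, 4.48% and 3.89% for H3K27ac and 4.36%, 3.68% and 3.57% for H3K4me1. Receptors had medians of 12.4%, 11.8% and 10.1% for H3K27ac and 20.9%, 21.1% and 18.9% for H3K4me1. The 14 ligands had 7.03%, 2.19% and 2.82% and 6.30%, 4.93% and 4.47%. Receptors therefore exceeded ligands by 7.40 percentage points for H3K27ac (5.32, 9.59 and 7.28 in the replicates) and by 15.0 points for H3K4me1 (14.6, 16.1 and 14.4). With only peaks of a −log10 p of at least 1.3 these gaps were 3.15 and 4.56 points, and with flanks of 100000 bp 6.59 and 7.92. Receptor genes were also longer, with a median of 90114 bp against 18924 bp. In the flanks alone the medians of receptors were 6.08%, 6.45% and 5.65% for H3K27ac and those of ligands 5.64%, 1.78% and 3.68%. For H3K4me1 the flanks of receptors had 6.47%, 6.47% and 6.49%, and those of ligands 6.36%, 6.30% and 4.32%. The difference for H3K4me1 was thus found in the gene bodies, where receptors had 25.7%, 24.1% and 23.1% and ligands 4.77%, 3.97% and 5.10%.

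The 8 Smads had medians of 8.77%, 7.48% and 6.14% for H3K27ac and 17.4%, 16.9% and 19.0% for H3K4me1. The 4 targets ran the other way, with 19.1%, 13.3% and 11.4% for H3K27ac and 8.51%, 8.83% and 4.46% for H3K4me1. The 6 antagonists had 11.2%, 7.04% and 5.53% for H3K27ac and 6.10%, 4.64% and 3.61% for H3K4me1, which overlapped.

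**Figure D3:**
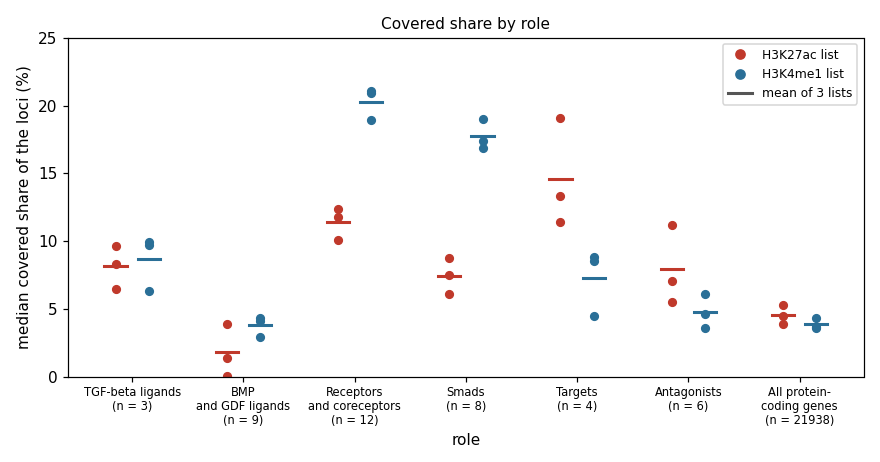
Each point is the median covered share (%) of the loci of a role in 1 replicate list, and the bar is the mean of 3 lists (red, H3K27ac, blue, H3K4me1). Receptors and Smads stand higher for H3K4me1 and targets higher for H3K27ac, and the BMP and GDF ligands are lowest for H3K27ac at a mean of 1.79%.

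Among the ligands, Tgfb1 was covered by H3K27ac over 11.4%, 8.63% and 7.19% of its locus in replicates 1, 2 and 3 and by H3K4me1 over 11.5%, 9.22% and 9.71%. The marks overlapped there, and at Tgfb2, with 7.69%, 5.45% and 4.30% and 9.95%, 6.32% and 9.87%. Tgfb3 had 9.67%, 8.33% and 6.47% for H3K27ac and 9.80%, 5.08% and 3.88% for H3K4me1. The Tgfb1 locus holds 5 other protein-coding genes, and the source of its coverage among these genes was not tested.

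Bmp2 varied most among BMP ligands, with H3K27ac over 13.6%, 2.57% and 12.5% and H3K4me1 over 1.74%, 3.07% and 21.1%. Its replicates spread more than its marks differed. Bmp7 had 8.86%, 6.24% and 3.61% and 11.8%, 15.1% and 8.57%. Gdf6 had the lowest mean of the class over the 6 lists, with 0%, 0.325% and 0% for H3K27ac and 0.700%, 1.06% and 2.18% for H3K4me1. Bmp4 and Inhbb had no H3K27ac peak anywhere in the locus in any replicate, and 0.514% to 3.73% and 0.294% to 2.24% for H3K4me1. Bmp3 had 0.548%, 0% and 0% for H3K27ac and 3.67%, 0.654% and 1.58% for H3K4me1, and Gdf10 had 1.19%, 0.391% and 0% and 4.14%, 4.78% and 5.06%, both without overlap. Gdf5 had 6.41%, 12.2% and 5.65% and 11.3%, 7.21% and 2.96%, which overlapped. A share of 0 says that no peak was called, not that the mark was absent. Bmp5, whose promoter had no peak, still had 7.65%, 1.81% and 2.03% of its locus under H3K27ac and 8.37%, 7.51% and 5.35% under H3K4me1. Inhba, with no other protein-coding gene in its locus, was the most covered ligand, with H3K27ac over 29.0%, 29.5% and 21.3% and H3K4me1 over 27.3%, 19.5% and 15.9%.

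Among receptors, Acvr2a, an activin type II receptor, had 42.2%, 19.9% and 19.2% for H3K27ac and 30.9%, 37.5% and 30.2% for H3K4me1. Its H3K27ac value of replicate 1 was far above the others, so the marks overlapped. Tgfbr3 (betaglycan, chr5:107106570-107289629) had 19.7%, 19.0% and 13.8% for H3K27ac and 37.4%, 45.1% and 36.6% for H3K4me1. All H3K4me1 values were above all H3K27ac values. The percentile of the H3K4me1 share among all protein-coding genes averaged 99.5 over the 3 lists. Acvr2b was the least covered receptor, with 2.00%, 2.92% and 0.707% and 3.27%, 3.39% and 1.12%. Acvr1b, an activin type I receptor, had 10.9%, 11.7% and 10.2% and 10.4%, 13.4% and 12.3%, and Eng, the coreceptor endoglin, had 6.69%, 9.66% and 6.73% and 10.7%, 7.06% and 9.11%. The marks overlapped at these 3. Acvr1, a BMP type I receptor, had 7.40%, 8.60% and 4.73% for H3K27ac and 26.2%, 21.0% and 15.8% for H3K4me1, without overlap.

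Among Smads, Smad1 (chr8:79338395-79399518) was the most covered, with 28.5%, 28.1% and 24.6% for H3K27ac and 26.1%, 34.0% and 31.9% for H3K4me1, which overlapped. Smad3 had 6.16%, 5.89% and 5.30% for H3K27ac and 26.3%, 23.4% and 22.4% for H3K4me1, a gap far larger than the spread of either mark. Smad9 was the least covered, with 4.64%, 6.08% and 3.60% and 4.37%, 2.13% and 0%. Smad4, the common partner, had 6.99%, 6.08% and 4.12% and 10.2%, 10.5% and 5.39%. The inhibitory pair went in opposite directions. Smad7 had 38.8%, 28.4% and 28.0% for H3K27ac and 21.7%, 25.2% and 23.9% for H3K4me1. Smad6 had 4.02%, 10.3% and 6.98% for H3K27ac and 19.6%, 12.9% and 10.7% for H3K4me1. At neither gene did the marks overlap.

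Among targets, Id3 (chr4:136143497-136145755) had 28.9%, 25.6% and 21.7% for H3K27ac and 14.8%, 9.90% and 4.64% for H3K4me1, without overlap. Of its covered sequence, 63.6% of the H3K27ac length and 94.1% of the H3K4me1 length lay upstream of the promoter windows. Id2 had 14.8%, 13.0% and 9.39% for H3K27ac and 7.92%, 7.76% and 4.28% for H3K4me1, again apart. Id1 had 23.4%, 13.6% and 13.4% and 9.10%, 17.0% and 14.0%, and Id4 had 1.29%, 0% and 4.61% and 0.443%, 0% and 2.50%. The marks overlapped at both. Id3, Id2 and Id4 had no other protein-coding gene in their loci.

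Among antagonists, Fstl1 had 17.6%, 18.7% and 15.2% for H3K27ac and 21.2%, 17.3% and 18.9% for H3K4me1. Fst had 18.3%, 17.9% and 5.21% and 6.03%, 6.51% and 0%, so that its replicate 3 was low for both marks and the marks overlapped. Nog had 6.78%, 6.07% and 3.62% for H3K27ac and 0%, 0.491% and 2.77% for H3K4me1, without overlap. Chrd also had more H3K27ac in every list, 13.5%, 8.00% and 8.13% against 6.18%, 4.27% and 3.50%. Of the H3K27ac length at Chrd, 2.92% lay in its own promoter windows, and its locus holds Clcn2, Polr2h and Thpo as well. Ltbp1 had 13.1%, 10.3% and 12.0% and 14.8%, 9.46% and 10.8%, and Ltbp2 had 3.26%, 3.04% and 2.12% and 5.46%, 3.86% and 2.15%, and the marks overlapped at both.

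**Figure D4:**
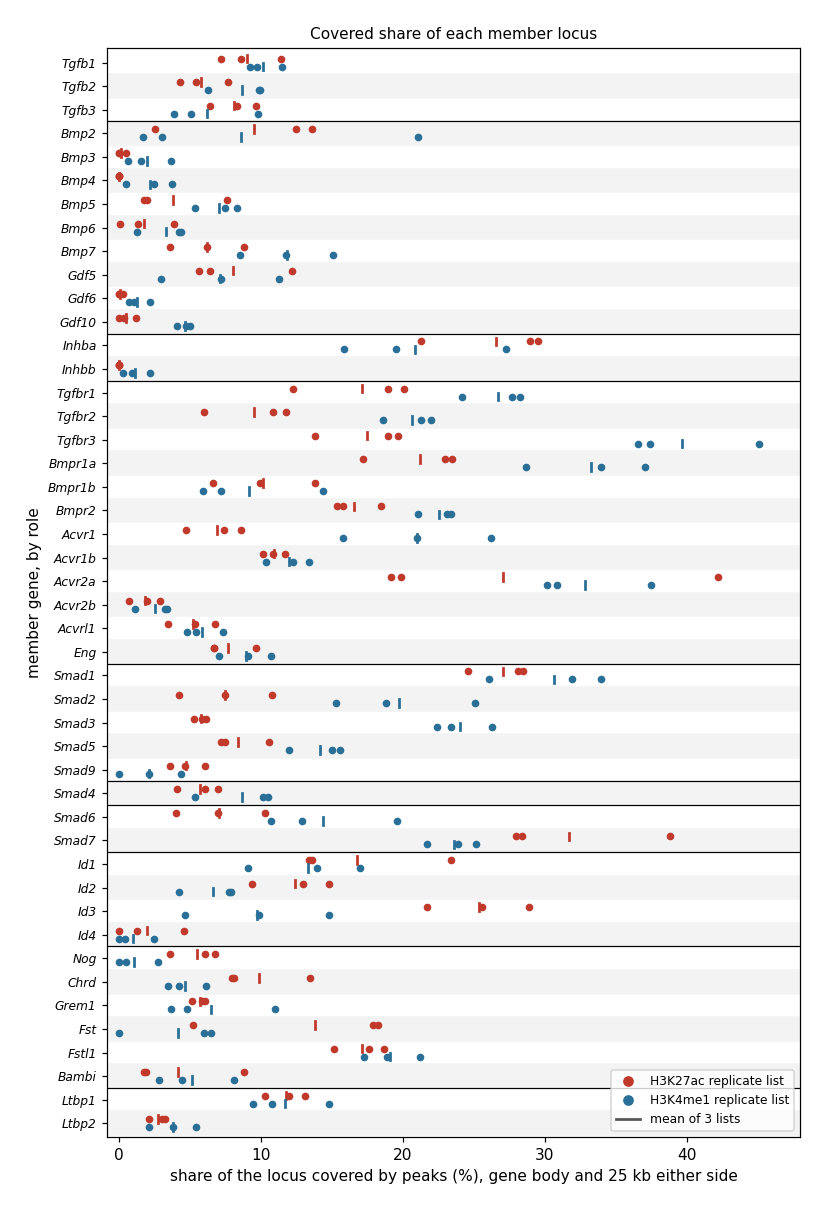
Each point is the share (%) of a member locus covered by peaks of 1 replicate list (red, H3K27ac, blue, H3K4me1), and the bar is the mean of 3. The blue points of Tgfbr3 (36.6% to 45.1%) and Smad3 stand clear to the right of the red, and the red points of Id3 clear to the right of the blue.

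Counting loci whose 3 values of one mark all exceeded the 3 of the other, 15 members (32.6%) had more H3K4me1, where 12.0% of protein-coding genes did, and 5 (10.9%) had more H3K27ac, where 17.3% did. Those with more H3K4me1 were 6 of 12 receptors (Tgfbr1, Tgfbr2, Tgfbr3, Bmpr1a, Bmpr2 and Acvr1), 4 of 8 Smads (Smad2, Smad3, Smad5 and Smad6) and 5 of 14 ligands (Bmp3, Bmp4, Gdf6, Gdf10 and Inhbb). The 5 ligand loci had few peaks of either mark, with mean shares of 1.15% to 4.66% for H3K4me1 and 0% to 0.527% for H3K27ac. Those with more H3K27ac were Smad7, Id2, Id3, Nog and Chrd. Among these 20 loci, the largest mean differences were 22.2 points at Tgfbr3, 18.3 at Smad3 and 14.1 at Acvr1 toward H3K4me1, and 15.6 at Id3, 8.11 at Smad7 and 5.74 at Id2 toward H3K27ac. Fst differed by 9.63 points toward H3K27ac with overlapping values. With only peaks of a −log10 p of at least 1.3, 10 loci had more H3K4me1, where 5.99% of protein-coding genes did, and 10 had more H3K27ac, where 26.1% did. With 20 assignments of 6 lists, the exact two-sided permutation test could not go below p = 0.100, and each of the 20 members had that p and an adjusted p of 0.342 (Benjamini-Hochberg over 21938 genes), so none passed 0.05. Without H3K27ac replicate 3 the loci with more H3K27ac were 8 (background 24.0%), and without H3K4me1 replicate 1 they were 9 (background 22.1%). Counted within same-numbered pairs of lists, 23 loci (background 19.1%) had more H3K4me1 and 8 (26.4%) more H3K27ac. Within pairs called against the same IgG library they were 25 (background 25.6%) and 9 (27.9%). With flanks of 100000 bp they were 17 (background 16.2%) and 2 (18.5%).

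**Figure D5:**
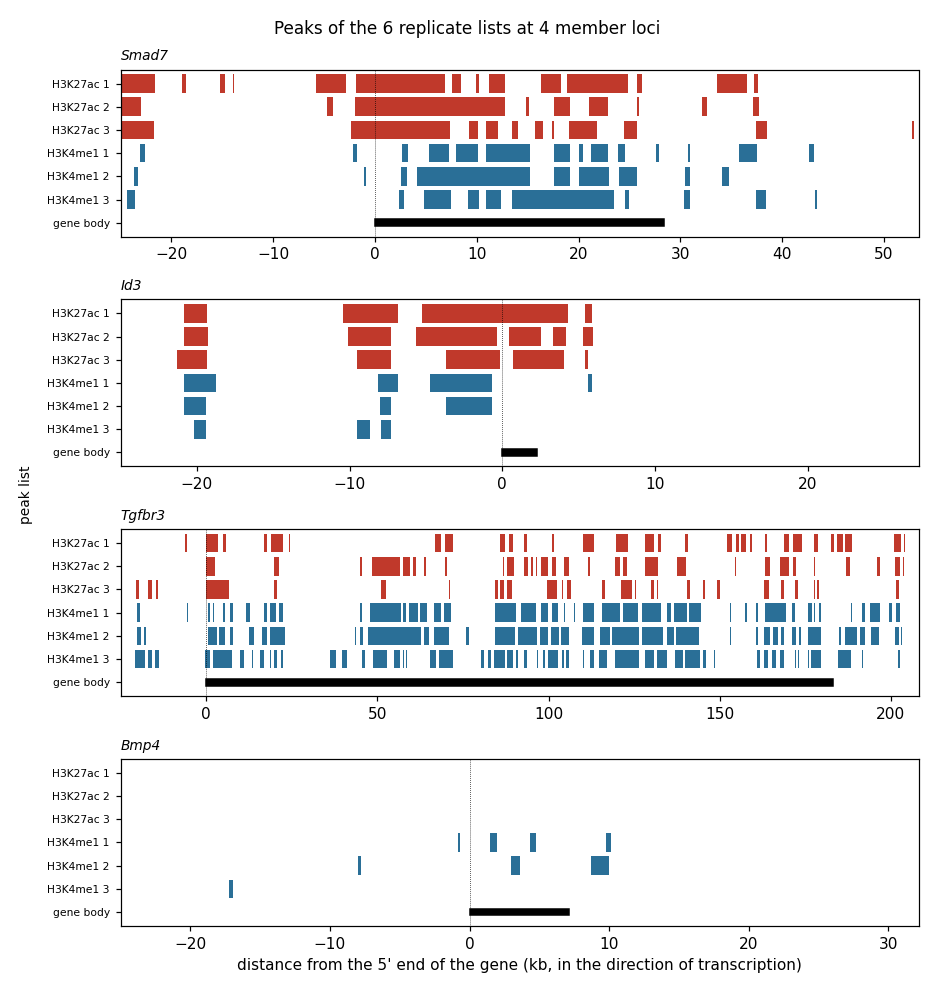
Peaks of the 6 replicate lists (red, H3K27ac, blue, H3K4me1) are drawn along the loci of Smad7, Id3, Tgfbr3 and Bmp4 against the distance from the 5′ end (kb), with the gene body in black. At Smad7 and Id3 red peaks lie over or next to the 5′ end, at Tgfbr3 blue peaks fill much of the gene body, and at Bmp4 the few peaks are all blue.

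Distal sequence covered in at least 2 replicates of each mark, outside every promoter window, was found at 37 members (80.4%), against 53.8% of protein-coding genes. It was found at all 12 receptors, at 8 of 14 ligands and at 5 of 6 antagonists. Tgfbr3 had 29 such regions with 22312 bp in all, Ltbp1 29 with 15646 bp, Acvr2a 28 with 15105 bp, Bmpr1a 23 with 20641 bp and Smad1 20 with 19299 bp. Bmp3, Bmp4, Bmp6, Gdf6, Inhbb, Tgfb1, Smad9, Id4 and Nog had none. Sequence covered in all 6 replicate lists was found at 24 members (52.2%, background 33.7%) and formed 90 stretches, of which 73 lay in introns, 12 between genes and 5 touched exons. Of the 90, 26 lay under a peak that also reached a promoter window of the gene in at least 1 list (6 of them in all 6 lists), and 64 did not. Receptors held 46 of these stretches, Smads 19 and ligands 4. Long genes offer more sequence to search, and the counts were not corrected for length. Lists of the 2 marks also shared IgG libraries in their calls, H3K27ac replicate 2 with H3K4me1 replicates 1 and 2 and H3K27ac replicate 3 with H3K4me1 replicate 3, and the part of this in the shared sequence was not tested. In the central 300 bases of the 53 stretches of that length or more, TGANTCA matched in 12 (22.6%), against 14.0% of 9582 such stretches in the genome, and the AP-1 sites in 9 (17.0%), against 9.05%. Neither GTCTAGAC nor GGCGCC matched in any of the 53, against 0.365% and 0.751%. The CArG box, the site of SRF, matched in 1 (1.89%), against 1.94%.

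Another 54 genes of the pathway, from a list of less studied ligands, receptors, antagonists, cofactors and targets, had H3K27ac promoter peaks in all 3 replicates at 27 (50.0%, background 47.1%), H3K4me1 at 23 (42.6%, background 31.7%), both at 19 (35.2%, background 27.8%) and no peak in any replicate list at 15 (27.8%, background 31.4%). The shares for H3K27ac and for no peak were near those of all protein-coding genes. Of these 15, 11 were ligands, among them Bmp10, Bmp15, Lefty1 and Lefty2. Of the 5 other receptors, 1 had H3K27ac in all 3 replicates (Rgmb, a BMP coreceptor, with both marks in all 6 lists), 3 had H3K4me1 in all 3, and Amhr2 and Hfe2 had no peak, unlike most of the 12 member receptors. The median covered share of these 5 loci was 5.96% for H3K27ac and 8.57% for H3K4me1, against 5.23% and 3.15% at the 19 other ligands. The 10 cofactors had H3K27ac in all 3 replicates without exception, and 9 of them had H3K4me1 in all 3 as well, among them the Smad corepressors Ski and Skil. Ski had a mean of 18.5% of its locus under H3K27ac and 46.7% under H3K4me1.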

How the data were processed

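ChIC-Seq of H3K27ac and H3K4me1 in WT primary oviductal muscle cells on D2 of pregnancy was analysed from 6 replicate and 2 pooled peak lists. Per the labels, the submitters' processing notes name cutadapt, Bowtie2, MACS2 and GRCm38.p5. The aligner and trimming settings are not given in the sources used here. Per the file headers, the authors called broad peaks with MACS 2.2.7.1 in paired-end mode with p cutoffs of 0.05 and 0.1. The deposited pileup is a coverage signal scaled to the IgG depth, the deposited fold enrichment is a ratio over the background nearby, both raised by 1, and the deposited p-values are −log10 values. A limited IgG depth makes weak peaks uncertain.

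Starts and genes came from GENCODE mouse release M21, and sequences from GRCm38. Peaks of a list were merged, and covered bp were summed over the gene body and 25 kb either side. Calculations used Python 3.11.15, numpy 2.4.6, pandas 2.3.3, scipy 1.17.1 and pysam 0.24.0. Of 600 simulated interval operations, 0 differed from a count base by base.

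The members, roles and gene lists were chosen with earlier results of these data known. All 46 members were counted. Values in every list were given for the 2 most and 1 least covered members of each role, for members with no promoter peak, for those with a pooled peak in fewer than 2 replicates and for the 3 largest differences between marks in each direction among loci whose marks did not overlap. A few others, such as Bmp4 and Inhbb, were chosen after their values were seen.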

Additional observations from a re-analysis of the deposited data

How the results depend on the processing

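Counts of promoter peaks moved with the peak threshold and with the window. The list difference below is the mean number of members with a promoter peak per H3K27ac list minus that per H3K4me1 list. It was above 0 in the alternatives run on replicate lists and reversed to -5.00 in the pooled lists (36 against 41 members), which were compared after seeing the data. Receptors exceeded ligands in median covered share under every alternative run, for both marks. With peaks of −log10 p of at least 1.3, 2 members (4.35%) had a promoter peak in all 6 lists, against 5.00% of protein-coding genes. There were 13 of 46 with none (47.2% of genes) and 4 of 46 with H3K4me1 in all 3 (6.30% of genes), and the list difference was 13.3. Median covered shares were 2.61% (H3K27ac) and 1.86% (H3K4me1), the reverse of the order of 7.64% and 8.85% without the filter. Of the loci, 10 had more H3K27ac and 10 more H3K4me1 (5 and 15 without the filter), against 26.1% and 5.99% of genes. Receptors exceeded ligands by 3.15 and 4.56 points. With windows of 250 bp, 8 members had peaks in all 6 lists, 8 in none and 11 had H3K4me1 in all 3 (17.4%, 17.4% and 23.9%, against 13.7%, 36.8% and 16.6% of protein-coding genes), and the list difference was 10.7. With windows of 3000 bp it was 0.333 and 0 members had none (26.0% of genes). With starts of protein-coding transcripts it was 8.00. At that setting 15 members had peaks in all 6 lists, 3 in none and 16 had H3K4me1 in all 3, against 20, 2 and 21 with any start. The matching shares of all protein-coding genes are not given here. With 500 bp of a window covered, the counts were 11, 8 and 12 (23.9%, 17.4% and 26.1%, against 14.8%, 38.4% and 17.7% of genes) and the difference 9.33. Over gene bodies only, median shares were 9.69% and 10.5% and receptors exceeded ligands by 9.99 and 19.7 points. With flanks of 10000 bp the medians were 9.50% and 11.2% and the H3K4me1 difference 17.1, and with 100000 bp it was 7.92 and 2 loci (4.35%) had more H3K27ac, against 18.5% of genes. In the pooled lists, 41 members had H3K4me1, its median was 17.8% and the receptor difference 14.0.

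Leaving out 1 replicate at a time gave 2 to 4 members without a promoter peak and 5 to 9 loci with more H3K27ac, the extremes without H3K4me1 replicate 1. Same-numbered samples of the marks did not deviate together in every case (r over genes −0.0808, 0.335 and 0.493 for numbers 1, 2 and 3), so the numbers were not taken as pairs. For H3K27ac and H3K4me1 lists called against the same IgG library, r was 0.374, 0.335 and 0.493. For the other pairs of lists it was −0.508 to 0.0733. The permutation test took no account of shared IgG libraries. With a replicate block, 8 loci (17.4%) had more H3K27ac and 23 (50.0%) more H3K4me1, counted within every pair, against 26.4% and 19.1% of protein-coding genes. An alternative chosen after seeing the data compared lists called against the same IgG library and gave 9 (19.6%) and 25 (54.3%) such loci, against 27.9% and 25.6% of genes, and a list difference of 3.33. The cause of these changes was not tested.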
